A study of Mus musculus with 12 samples.

Results

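The 10 genes described here form the core loop of the circadian clock: the PER and CRY repressors Per1, Per2, Per3, Cry1 and Cry2, the activators Arntl (BMAL1), Clock and Npas2, and the repressors Bhlhe40 and Bhlhe41, also called DEC1 and DEC2. They were taken by gene symbol from each deposited table, and all 10 were listed in all 3 tables, among 39666, 39716 and 39647 distinct gene names at 2 h, 24 h and 7 d. The rule that picks them uses no measured value, although earlier results of these data were known when it was made. RNA was sequenced from the prefrontal cortex (PFC) of 60 male C57BL/6 mice (C57BL/6 J in the study's methods) aged 10 weeks. The mice received daily intraperitoneal injections for 14 days, either of cocaine at 20 mg/kg or of saline, with the brain taken 2 h, 24 h or 7 d later than the final dose. Each of the 6 groups had 2 libraries, and each library pooled tissue from 5 animals, so no value belongs to a single mouse. The cocaine was given by the experimenter and not taken by the animal. The excised tissue held frontal association, prelimbic and orbital cortex together.

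The mammalian clock is a feedback loop of transcription. BMAL1 pairs with CLOCK, or with its relative NPAS2 in the forebrain, and the pair binds E-box sequences and switches on the Per and Cry genes. The PER and CRY proteins then return to the nucleus and block that pair, while DEC1 and DEC2 compete for the same E-boxes. Per1, Per2 and Bhlhe40 are also known to respond to signals from outside the loop, including neuronal activity and glucocorticoids, while Arntl is driven through ROR elements and reaches its peak at the opposite phase to the Per genes.

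The values are FPKM, fragments scaled to transcript length and to the number of mapped fragments, and each table holds 1 value pooled by the authors for each group. The tables hold no values for single libraries, so no SD, test or p-value accompanies any number below, and the depth behind each value is unknown from the tables. A ratio is given as log2 of (FPKM + 0.1) in one group over that in the other, and a gene is counted as past the fold where it is at least 1.5-fold higher or lower. As a description of how often such ratios occur, each member was set beside the loci of like FPKM, within a factor of 2 of its own mean, in the same table. Loci are not replicates, and their share is no probability.

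Promoters in RefSeq (GRCm38.p6, from 250 bases before to 50 after a transcript start) were found for 8 of the 10 members, 12 windows in all, and not for Per2 and Bhlhe40. They were searched on both strands for the E-box CACGTG, the E-prime box CACGTT, the D-box TTATGTAA, the cAMP response element TGACGTCA, its half-site TGACG and the ROR half-site AGGTCA. These elements are the known entry points of the loop's own activators, of the D-box output factors, of CREB and of the ROR and REV-ERB receptors. A full cAMP response element contains the half-site, and the other motifs do not contain one another. Of 32851 RefSeq promoters of the same length, 7.15% held the E-box, 4.68% the E-prime box, 0.938% the D-box, 1.79% the full cAMP response element, 20.8% its half-site and 16.3% the ROR half-site. Among the members, 3 of 8 held an E-box, 2 an E-prime box, 1 a D-box, none the full cAMP response element, 3 its half-site and 3 a ROR half-site. Counted by window as the background is, 3 of the 12 windows held an E-box, 2 an E-prime box, 1 a D-box, 4 the cAMP half-site and 3 a ROR half-site. A match is a run of letters only, and no match says nothing about sites outside the window.

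Both Per1 windows are shown because Per1 differed most between cocaine and saline at 2 h, Cry1 because it held an E-box and an E-prime box, and Bhlhe41 because it held an E-box without a comparable cocaine ratio. Per3 is shown for its pair of D-boxes, and the second Arntl window for its ROR half-site. Capitals mark the motifs, and each sequence runs 5′ to 3′ along the gene's strand.
Per1 first promoter chr11:69098699-69098998 (+ strand): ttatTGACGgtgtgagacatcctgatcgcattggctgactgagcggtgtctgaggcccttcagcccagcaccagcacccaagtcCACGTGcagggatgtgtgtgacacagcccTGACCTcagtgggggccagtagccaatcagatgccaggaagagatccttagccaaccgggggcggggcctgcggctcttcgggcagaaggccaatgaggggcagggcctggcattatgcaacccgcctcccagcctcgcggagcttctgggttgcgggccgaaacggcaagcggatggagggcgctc
Per1 second promoter chr11:69099902-69100201 (+ strand): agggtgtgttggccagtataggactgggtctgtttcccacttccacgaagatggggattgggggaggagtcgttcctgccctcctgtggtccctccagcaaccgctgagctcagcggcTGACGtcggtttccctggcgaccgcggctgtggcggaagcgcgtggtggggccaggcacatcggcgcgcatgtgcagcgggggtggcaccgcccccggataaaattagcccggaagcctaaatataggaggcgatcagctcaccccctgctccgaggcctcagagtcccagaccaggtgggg
Cry1 promoter chr10:85185005-85185304 (- strand): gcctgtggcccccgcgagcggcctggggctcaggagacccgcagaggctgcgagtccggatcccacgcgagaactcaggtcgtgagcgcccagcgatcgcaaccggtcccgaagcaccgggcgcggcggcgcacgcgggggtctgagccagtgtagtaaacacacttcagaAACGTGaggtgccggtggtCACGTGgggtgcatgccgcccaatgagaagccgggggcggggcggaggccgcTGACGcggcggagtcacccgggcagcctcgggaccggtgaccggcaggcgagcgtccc
Bhlhe41 promoter chr6:145865371-145865670 (- strand): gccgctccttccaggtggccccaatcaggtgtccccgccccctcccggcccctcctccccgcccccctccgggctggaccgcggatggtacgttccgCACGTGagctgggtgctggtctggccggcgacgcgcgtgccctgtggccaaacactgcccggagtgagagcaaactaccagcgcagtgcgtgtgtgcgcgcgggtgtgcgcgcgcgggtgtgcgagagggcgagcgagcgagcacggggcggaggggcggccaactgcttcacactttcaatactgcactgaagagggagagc
Per3 promoter chr4:151044616-151044915 (- strand): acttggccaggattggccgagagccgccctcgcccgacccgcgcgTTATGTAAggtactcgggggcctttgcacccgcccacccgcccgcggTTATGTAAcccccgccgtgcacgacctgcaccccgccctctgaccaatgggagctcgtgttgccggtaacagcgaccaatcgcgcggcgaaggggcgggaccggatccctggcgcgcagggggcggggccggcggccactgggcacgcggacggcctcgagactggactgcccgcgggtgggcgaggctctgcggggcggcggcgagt
Arntl second promoter chr7:113207261-113207560 (+ strand): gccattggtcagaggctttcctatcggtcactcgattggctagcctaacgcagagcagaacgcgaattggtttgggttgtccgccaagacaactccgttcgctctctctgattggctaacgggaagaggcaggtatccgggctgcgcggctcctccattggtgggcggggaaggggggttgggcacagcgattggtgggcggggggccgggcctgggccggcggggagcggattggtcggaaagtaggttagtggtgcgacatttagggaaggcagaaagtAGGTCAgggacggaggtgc

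Counted from the transcript start, the E-box lies at -166 in the first Per1 window, at -60 in Cry1 and at -153 in Bhlhe41. The Cry1 E-prime box lies at -79, and the D-boxes of Per3 lie at -205 and -158. The ROR half-site of Arntl lies at 31, downstream of the start. Cry2, not printed, held an E-prime box at -166, the third Clock window held a ROR half-site at -119, and no motif of the 6 was found in the Npas2 window. Of the 3 genes with an E-box, Per1 and Cry1 were past the fold at 2 h and Bhlhe41 was not, as the values below show. Over all loci 2.54% were higher by that margin, and Cry1 did not reach it with 1 FPKM added (log2 0.54). Per2 and Bhlhe40 were also past the fold but had no window. Whether the motif goes with the ratio was not tested.

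At 2 h after the last injection, 4 of the 10 genes were at least 1.5-fold higher in cocaine than in saline: Per1, Per2, Bhlhe40 and Cry1. None was as much lower, and 6 did not reach the fold. With 1 FPKM added in place of 0.1, the log2 ratio of Cry1 was 0.54, which does not reach the fold, and the count was 3. Over all 13804 loci with a mean FPKM of at least 1, 2.54% were higher by that margin and 1.9% lower. At 24 h, 3 genes were past the fold, Per2, Bhlhe40 and Per1, again all higher in cocaine, where 1.91% of 14264 loci were higher and 1.65% lower. At 7 d none of the 10 was past the fold in either direction, and the background was 1.73% higher and 2.43% lower among 13927 loci. All 10 members passed the FPKM minimum in every table, so no member is missing from these counts. In time order, the 10 genes had median log2 ratios of 0.18, 0.33 and 0.15, beside 0.02, 0.01 and -0.01 over all loci. With a minimum of 5 FPKM, which leaves out Per2, Per3 and Cry1 at 24 h, the median there was 0.07 over 7 genes. Above 0 were 8, 8 and 9 of the 10 genes, while 56.1%, 53.0% and 47.6% of all loci were. Some of these lay almost at 0, such as Per3 at 2 h (0.02) and Clock at 24 h (0.00). With ratios centred on the median of all genes, 7, 7 and 9 members were above 0. With the FPKM of several rows of a gene summed, 8 were above 0 at 7 d.

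**Figure D1:**
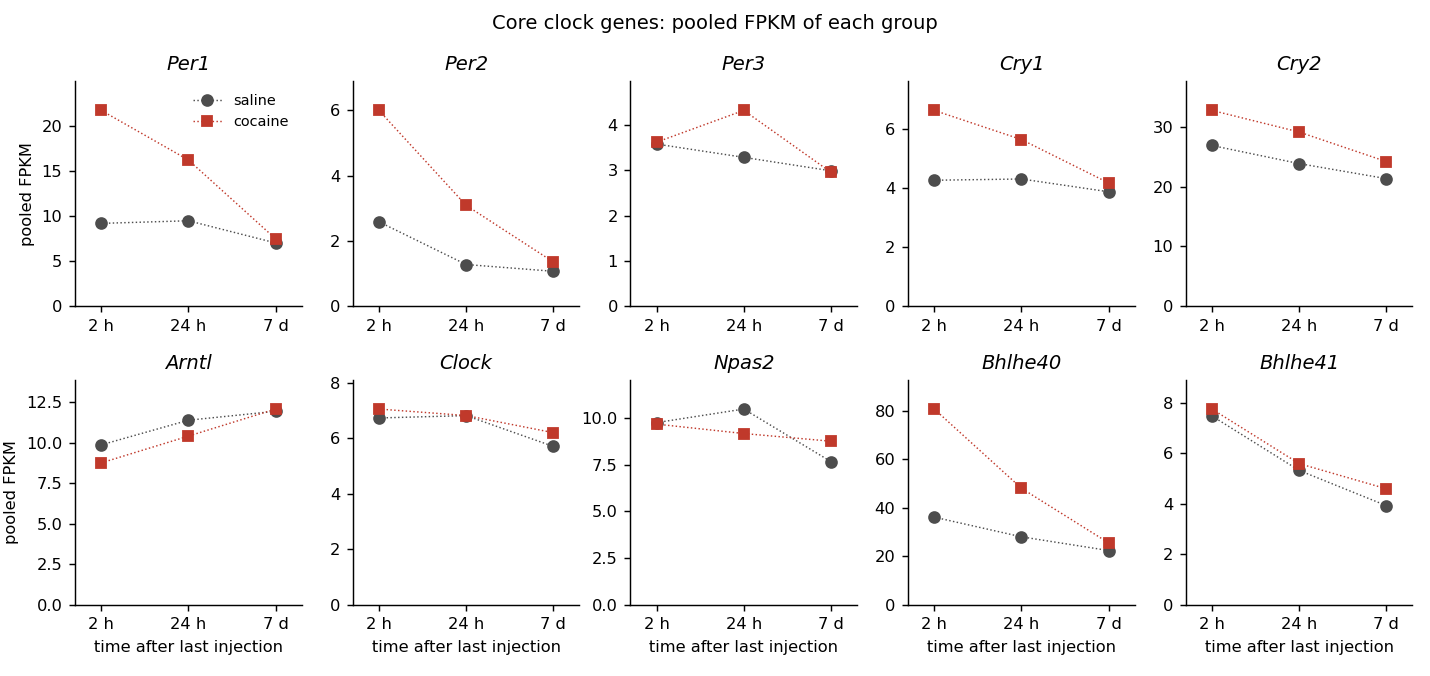
Pooled FPKM (vertical axis, from 0) of the 10 core clock genes in the saline groups (grey circles) and cocaine groups (red squares) at 2 h, 24 h and 7 d after the last injection, with dotted lines as a guide only and no error bars because each point is 1 pooled value. Per1, Per2 and Bhlhe40 stand far above saline at 2 h and 24 h and close to it at 7 d, while Arntl, Clock, Npas2 and Bhlhe41 keep close to saline throughout.

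Per1, a PER gene known for a rapid response to stimuli, stood at 9.17 FPKM in saline against 21.7 in cocaine 2 h after the last dose. The 24 h pair was 9.46 against 16.2, and the 7 d pair 7.00 against 7.46. Cocaine was thus 2.35-fold higher at 2 h (log2 ratio 1.23), 1.70-fold at 24 h (0.77) and 1.06-fold at 7 d (0.09). The level in cocaine at 24 h was still above that of saline at any time point. Only 0.637% of 4710 loci of like FPKM had so high a ratio at 2 h, and 0.968% at 24 h, against 29.8% at 7 d. The row covers chr11:69095165-69109960 of GRCm38 and no other gene shares it. A second, 429-base row under the same symbol appeared at 24 h just downstream, with 0.0929 FPKM in saline and 0.687 in cocaine, and was not used.

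Per2, whose protein forms the repressor complex with CRY, was the lowest of the PER genes in every group but cocaine at 2 h. Saline against cocaine read 2.59 and 6.00 FPKM for the 2 h groups, 1.28 and 3.09 for the 24 h groups, and 1.07 and 1.36 for the 7 d groups. The ratio was as large at 24 h as at 2 h, 2.32-fold against 2.27-fold (log2 1.21 and 1.18), and 1.24-fold at 7 d (0.32). That sets it apart in value from Per1 and Bhlhe40, whose log2 ratios were lower at 24 h than at 2 h by 0.46 and 0.38. At these low levels the added 0.1 matters: with 1 FPKM added instead, the Per2 log2 ratios were 0.97, 0.85 and 0.19. The Per2 locus is chr1:91415982-91459324, and the RefSeq gene Gm35591 overlaps it. No library-level value shows whether the 24 h and 2 h ratios differ beyond replicate spread.

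Per3, a PER protein that is not essential for rhythms in mice, behaved unlike its relatives at 2 h. Its saline and cocaine levels were 3.58 and 3.62 FPKM (2 h), 3.29 and 4.32 (24 h), and 2.99 and 2.96 (7 d). The largest of the 3 log2 ratios was therefore at 24 h, 0.39 (1.31-fold), where 3.47% of loci of like FPKM were as high. The other ratios were 0.02 and -0.02. The Per3 row has a span of 947315 bases that it shares with 7 other gene names, Camta1, Vamp3 and Uts2 among them. The libraries were made with a kit that does not mark strand, so reads of overlapping genes cannot be told apart, and this caveat applies to Per2, Per3, Cry2, Arntl, Clock, Npas2 and Bhlhe40.

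Cry1, which encodes a strong repressor of the activator pair, stood at 4.27 FPKM in saline against 6.64 in cocaine in the 2 h table. At 24 h it was 4.31 against 5.65, and at 7 d 3.88 against 4.18. Its ratio of 1.54-fold at 2 h (log2 0.62) was just past the fold, while its 1.30-fold (0.38) and the 1.31-fold of Per3 at 24 h were the nearest values that did not reach it. At 7 d it was 1.08-fold (0.10). Cry2, the more abundant CRY, had saline and cocaine levels of 26.9 and 32.7 FPKM (2 h), 23.8 and 29.1 (24 h), and 21.3 and 24.2 (7 d). Its ratio was modest and similar at each time point, 1.22-fold, 1.22-fold and 1.13-fold (log2 0.28, 0.29 and 0.18). Of loci of like FPKM, 4.27%, 2.53% and 9.81% had a ratio as high.

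Bhlhe40, which encodes the repressor DEC1 and is induced by many stimuli, was the most abundant member in every group and had the largest difference in FPKM. In the 2 h table saline stood at 36.2 FPKM against 80.8 for cocaine. Cocaine was also higher at 24 h, 48.1 against 28.1, and the values were close at 7 d, 25.5 against 22.4. The ratios were 2.23-fold (log2 1.16), 1.71-fold (0.78) and 1.14-fold (0.19). Among loci of like FPKM 0.454% were as high at 2 h and 1.17% at 24 h. The row spans 89887 bases with 0610040F04Rik and Gm17055, whereas the RefSeq gene is 6297 bases long, chr6:108660629-108666925.

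Bhlhe41, which encodes the paralogue DEC2, did not share this difference. Its saline and cocaine levels were 7.47 and 7.74 FPKM (2 h), 5.31 and 5.58 (24 h), and 3.92 and 4.59 (7 d). The log2 ratios were 0.05, 0.07 and 0.22. Bhlhe40 was 4.84, 5.28 and 5.71 times as abundant as Bhlhe41 in saline at 2 h, 24 h and 7 d. In cocaine it was 10.4, 8.62 and 5.57 times as abundant, so the pair differed in proportion at 2 h and 24 h and not visibly at 7 d.

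The activators were close between cocaine and saline in all tables. Arntl, the obligate activator of the loop, had saline and cocaine levels of 9.87 and 8.76 FPKM (2 h), 11.4 and 10.4 (24 h), and 11.9 and 12.1 (7 d). It was the only member below saline at both 2 h and 24 h by more than 0.1 on the log2 scale, with ratios of -0.17 and -0.13, and the ratio at 7 d was 0.02. About 11.7% and 11.8% of loci of like FPKM had ratios as low. Clock, its partner, had 6.72 and 7.05 FPKM (2 h), 6.81 in both groups (24 h), and 5.70 and 6.20 (7 d), with log2 ratios of 0.07, 0.00 and 0.12. A second Clock row of the same span at 7 d held 1.29 FPKM in saline against 0.587 in cocaine. When both were summed the log2 ratio at 7 d was -0.04 in place of that value. Npas2, the forebrain relative of Clock, had saline and cocaine levels of 9.76 and 9.68 FPKM in the 2 h table, 10.5 and 9.17 in the 24 h table (log2 ratio -0.19), and 7.67 and 8.76 in the 7 d table (0.19).

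**Figure D2:**
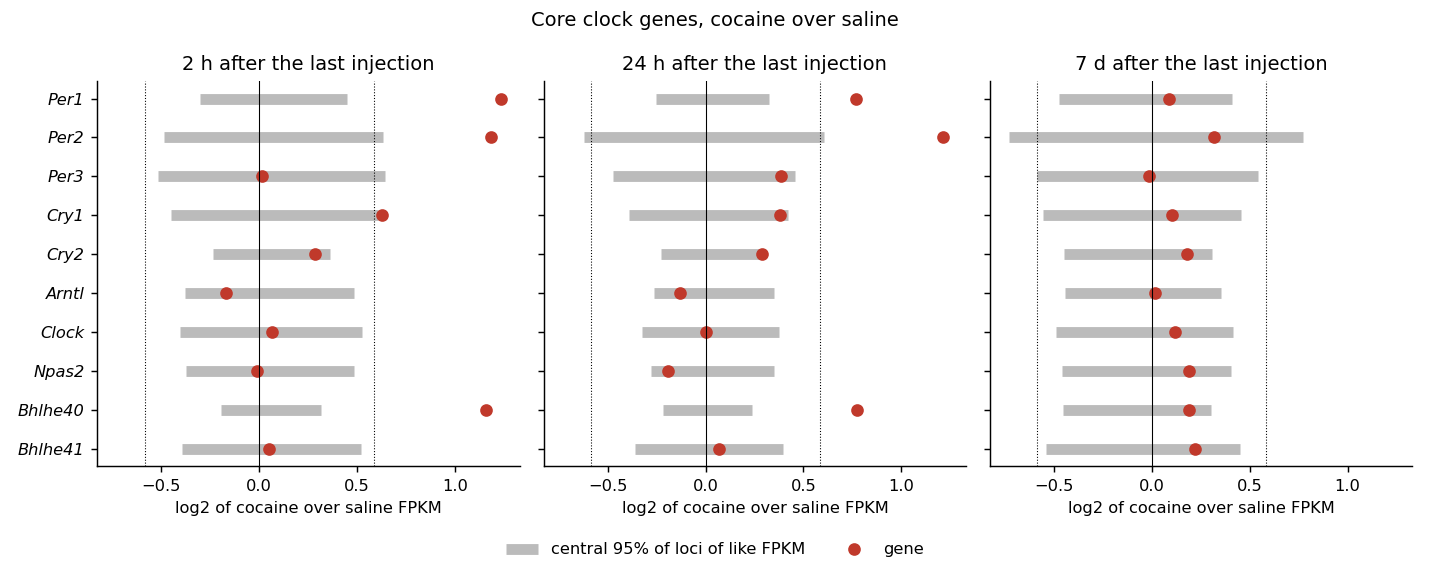
Log2 of cocaine over saline FPKM (horizontal axis) for each of the 10 genes (red points) at 2 h, 24 h and 7 d, with grey bars for the central 95% of ratios among loci of like FPKM and dotted lines at 1.5-fold. Per1, Per2, Bhlhe40 and, barely, Cry1 lie right of their bar at 2 h, Per1, Per2 and Bhlhe40 do so by a wide margin at 24 h, and no gene lies outside its bar at 7 d.

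Within a group, the balance of repressor to activator transcripts can be read from FPKM, which is per length. Per1 was below Arntl in saline at every time point, at 0.929, 0.830 and 0.586 of its FPKM. In cocaine it was 2.48 times Arntl at 2 h and 1.55 times at 24 h, and 0.617 at 7 d. Per2 stayed below Arntl in all 6 groups, at 0.262, 0.112 and 0.0895 of it in saline and 0.685, 0.297 and 0.112 in cocaine. Clock was below Npas2 everywhere, between 0.649 and 0.743 of its FPKM. At 7 d this leaves out the second Clock row, with 1.29 FPKM in saline and 0.587 in cocaine. Adding that row would raise the proportion there, most in saline. Cry2 was between 4.93 and 6.29 times as abundant as Cry1. On the rows used, these last pairs kept much the same proportion in all 6 groups, unlike Per1 and Arntl.

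Clock transcripts have daily rhythms, so the saline groups were also set side by side across the tables. Each table was normalized separately, and the injections were given in the morning, so by their intervals the 2 h groups were killed later in the day than the 24 h groups. The interval given for 7 d would put those groups at about the hour of the 24 h groups. In comparisons with 2 h, interval after injection, time of day and table cannot be told apart, and between 7 d and 24 h interval and table cannot, and no test was possible. The rows also differed: at 7 d those of Per1, Cry1, Cry2, Clock and Npas2 had slightly other ends than at 2 h and 24 h. Clock had a second row at 7 d only. How far this bears on the levels at 7 d was not tested. The median log2 ratio of all genes between tables lay between -0.05 and 0.04 for every pair of saline or of cocaine groups.

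In saline, Per2 was 1.95-fold higher at 2 h than at 24 h (log2 0.96), and it was the only member past the fold, where 1.58% of 13485 genes were higher and 2.8% lower. Bhlhe41 and Bhlhe40 followed at 1.40-fold and 1.29-fold (0.48 and 0.37). Per1 was almost level between these groups (-0.04), although its cocaine ratio was the highest of the members at 2 h. Cry1 and Clock were level too (-0.01 and -0.02). Arntl was lower at 2 h by 0.20 on the log2 scale, the lowest ratio of the members.

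Between saline at 7 d and saline at 24 h, no member was past the fold, and the background was 2.74% higher and 3.1% lower among 13358 genes. Even so, 9 of 10 members were lower at 7 d, where 45.1% of all genes were above 0, and the members' median was -0.24 beside -0.03. Npas2 had the lowest ratio (-0.45), followed by Per1 and Bhlhe41 (each -0.43), and Arntl alone was higher (0.07). These values leave out the second Clock row at 7 d, which held 1.29 FPKM in saline. With that row added, Clock too would be higher at 7 d than at 24 h. Between saline at 2 h and at 7 d, 3 members were past the fold, all higher at 2 h: Per2 (log2 1.20), Bhlhe41 by 1.88-fold (0.91) and Bhlhe40 by 1.61-fold (0.69). The background was 2.2% higher and 2.92% lower among 13239 genes. Arntl was again the 1 member on the other side (-0.27), although Clock would join it with its second row at 7 d added.

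**Figure D3:**
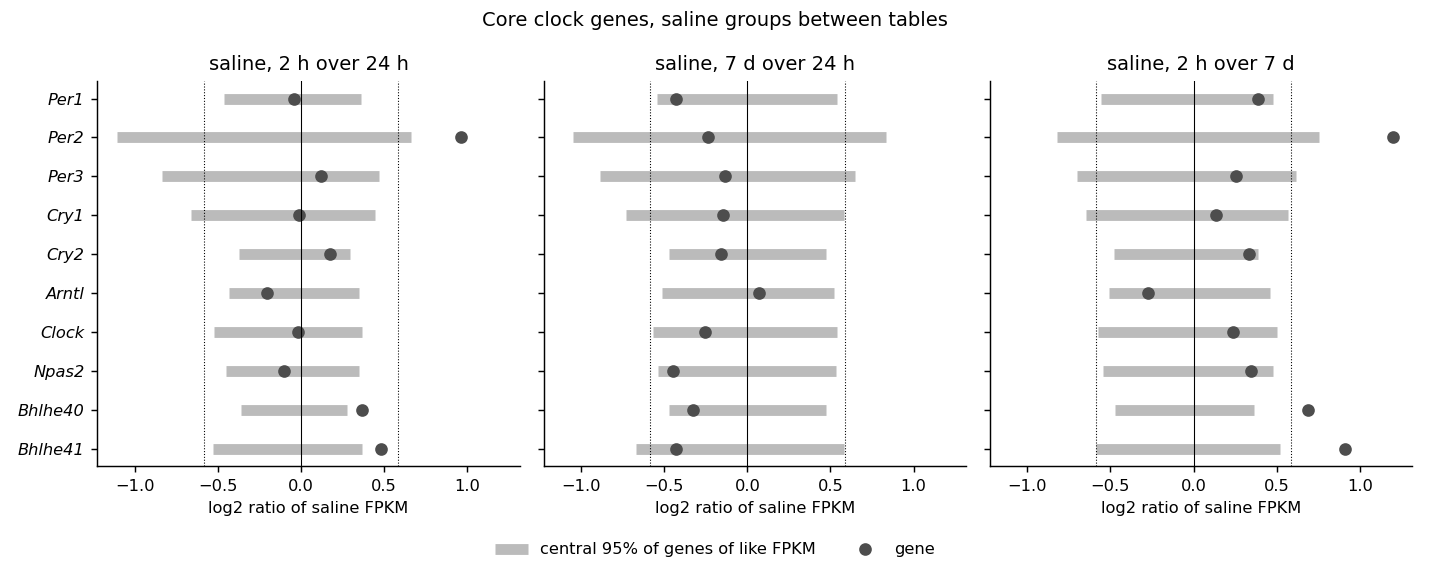
Log2 ratio of saline FPKM between the 2 h, 24 h and 7 d tables (horizontal axis) for the 10 genes (grey points), with bars for the central 95% of genes of like FPKM and dotted lines at 1.5-fold. Per2, Bhlhe40 and Bhlhe41 lie to the right of their bars in both comparisons that have 2 h as the first group, and no gene lies outside its bar for 7 d over 24 h.

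The cocaine groups differed more between tables. Per2 and Bhlhe40 were higher at 2 h than at 24 h past the fold (log2 0.94 and 0.75), where 1.96% of 13464 genes were higher and 2.8% lower. At 7 d, Per2, Per1 and Bhlhe40 were lower than at 24 h (-1.13, -1.11 and -0.91), with 2.03% of 13343 genes higher and 3.03% lower. From 2 h to 7 d the largest gaps appeared, with 5 members higher at 2 h: Per2 (2.07), Bhlhe40 (1.66), Per1 (1.53), Bhlhe41 (0.74) and Cry1 (0.66). The background there was 3.35% higher and 2.51% lower among 13236 genes. Arntl once more had the opposite sign (-0.46).

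Over all 6 groups, the highest level was 5.61 times the lowest for Per2, 3.61 times for Bhlhe40 and 3.10 times for Per1. Bhlhe41 followed at 1.97 and Cry1 at 1.71, and the other members lay between 1.24 for Clock and 1.54 for Cry2. For 7 of the 10 genes, Per1, Per2, Cry1, Cry2, Clock, Bhlhe40 and Bhlhe41, the highest group was cocaine at 2 h and the lowest saline at 7 d. For Clock this holds only with its second row at 7 d left out. With that row added, saline at 7 d would not be its lowest group and its range would be narrower. Arntl was lowest in cocaine at 2 h and highest in cocaine at 7 d. Per3 was highest in cocaine at 24 h and Npas2 in saline at 24 h. Neighbouring levels in these orders cannot be separated, since no spread between libraries is given.

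In Bhlhe41 and Per1 the difference between tables and the difference between treatments were not of like size. Bhlhe41 in saline went from 7.47 FPKM at 2 h to 5.31 at 24 h and 3.92 at 7 d with cocaine beside it at 1.04-fold, 1.05-fold and 1.17-fold. Per1 in saline was 9.17, 9.46 and 7.00 FPKM with cocaine at 2.35-fold, 1.70-fold and 1.06-fold. Per2 and Bhlhe40 showed both. Each was highest at 2 h in saline and in cocaine, and cocaine was past the fold at 2 h and 24 h.

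Around the core loop, 34 further clock genes were taken from a list of nuclear receptors, output factors, kinases, turnover genes and partners. Of these, 32 were at the FPKM minimum at 2 h and at 24 h, and 31 at 7 d. Arntl2 was below it in every table. Dbp had no row of its own at 7 d, and Rack1 was listed under its older symbol Gnb2l1. At 2 h none of the 32 was higher past the fold and 1 was lower, at 24 h 1 was higher and none lower, and at 7 d none was past it. With 1 FPKM added in place of 0.1, none was past it at 24 h. Their median log2 ratios were 0.04, 0.04 and -0.03, near those of all loci.

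The gene lower at 2 h was Usp2, a deubiquitinase that acts on PER1 and BMAL1, at 25.7 FPKM in saline against 16.3 in cocaine (log2 -0.65). Its later pairs were 20.8 against 23.3 (24 h) and 21.0 against 17.8 (7 d). The gene higher at 24 h was Ciart (CHRONO), a repressor of the BMAL1 and CLOCK pair, at 4.90 FPKM in saline against 7.56 in cocaine (0.62). Its other pairs were 8.22 against 10.2 (2 h) and 4.10 against 3.74 (7 d). In saline Ciart was 1.66-fold higher at 2 h than at 24 h, a ratio between those of Per2 and Bhlhe41. Just outside the fold at 2 h was Fbxl21, an E3 ligase subunit for CRY, at 1.77 and 1.16 FPKM (-0.57), chosen after its value was seen, and it was past the fold with nothing added to FPKM.

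By role, the 4 nuclear receptors measured spanned log2 ratios of -0.02 to 0.18 at 2 h, and the most abundant, Nr1d1 (REV-ERB alpha), stood at 54.6 FPKM in saline against 61.6 in cocaine. The output factors spanned 0.07 to 0.27 at 2 h and -0.18 to 0.42 at 24 h. The highest value there belonged to Dbp, with 21.1 and 28.3 FPKM. Dbp in saline was 39.3 FPKM at 2 h, 1.85-fold above 24 h, and Tef, the most abundant of these factors, was 75.0 and 72.3. The 9 kinases, which act on PER, CRY or other clock proteins, spanned -0.10 to 0.19 at 2 h and -0.22 to 0.11 at 24 h, with Csnk2b, the most abundant, at -0.08 at 2 h. Among turnover genes the most abundant was Skp1a, with 249 and 242 FPKM at 2 h, and among partners Rack1, with 126 and 134.

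**Figure D4:**
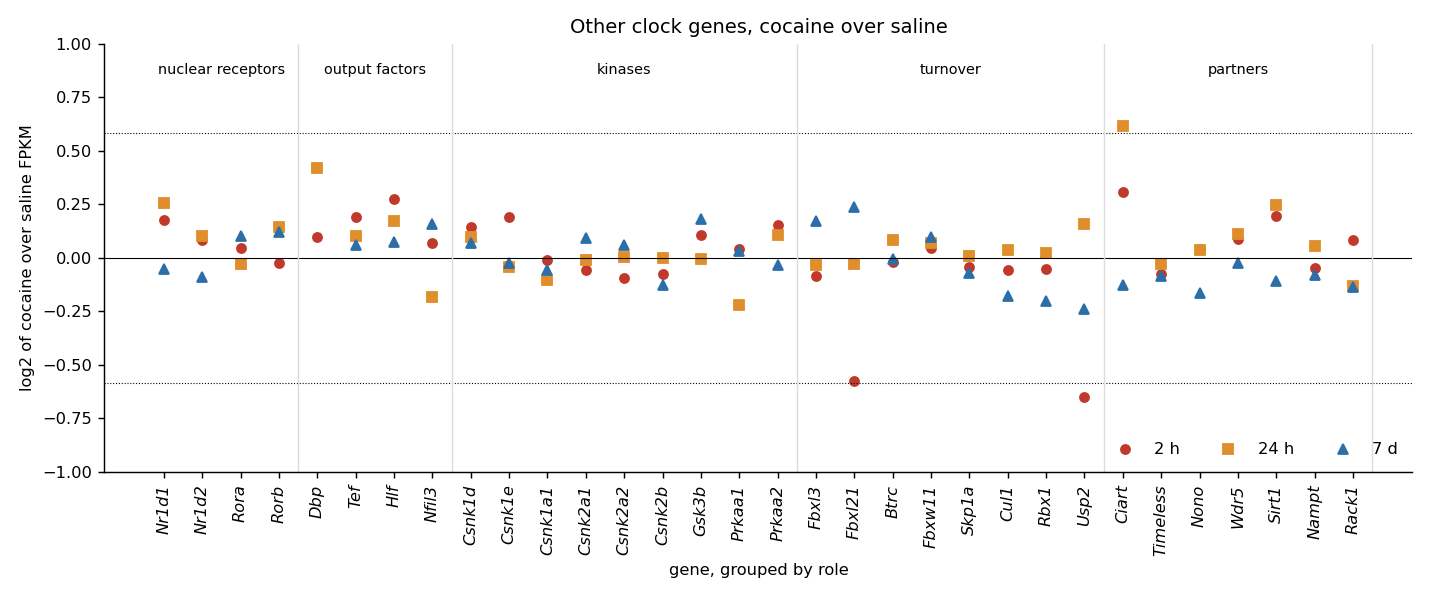
Log2 of cocaine over saline FPKM (vertical axis) of the other clock genes at the FPKM minimum, grouped by role, at 2 h (circles), 24 h (squares) and 7 d (triangles), with dotted lines at 1.5-fold. Usp2 lies below the lower line at 2 h and Ciart above the upper one at 24 h, and the other points lie between the lines.

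The genes with the profile nearest to each member over the 6 groups were found by the distance between centred log2 profiles among 13413 genes. With 6 points that share tables and groups, the likeness is a description with no p. For Per1 they were Dusp5 (distance 0.37, Pearson r 0.97), Plk3 (0.37, r 0.99) and Bhlhe40 (0.38, r 0.97). For Per2 they were Nr4a3 (0.56), Bhlhe40 (0.59) and Egr1 (0.63), and for Bhlhe40 they were Irs2 (0.37), Per1 (0.38) and Foxo6 (0.42). Per1 and Bhlhe40 were thus in each other's nearest 3, and Bhlhe40 was in that of Per2. Egr1, an immediate early transcription factor, stood at 41.9 FPKM in saline against 121 in cocaine in the 2 h table.

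The other members had nearer neighbours with flatter profiles. Bhlhe41 was nearest to Klf9 (0.22), which had 55.7, 40.4 and 30.1 FPKM in saline at 2 h, 24 h and 7 d and 56.6, 41.0 and 29.2 in cocaine. Next to it were Kmt2a (0.24) and Smek1 (0.25). Cry1 was nearest to Ephb3 (0.11), Gpt2 (0.14) and Setd1b (0.14), and Cry2 to D17H6S53E (0.05), Ccdc6 (0.06) and Luc7l (0.07). Per3 was nearest to Pprc1 (0.06), Prdm8 (0.11) and Fastkd1 (0.12). Arntl was nearest to the pseudogenes Rps19-ps1 (0.08) and Rps19-ps2 (0.09), whose reads may be shared with near-identical copies, and to Hilpda (0.09). Clock was nearest to Cdh2, Cmip and Gabbr2 (0.04, 0.04 and 0.05), and Npas2 to Ube4b (0.08), Myo7a (0.09) and Fbrsl1 (0.10). The Clock profile leaves out its second row at 7 d.

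The labelled tissue was checked against marker genes, summed in FPKM over the 6 groups. Cortical excitatory neuron markers summed to between 1401 and 1664 and interneuron markers to between 346 and 428, while olfactory bulb markers were at 0.456 at most and striatal markers at 22.5 at most. Oligodendrocyte markers summed to 624 in saline and 583 in cocaine at 2 h, and to 748 and 618 at 24 h. Red blood cell markers summed to 189 in saline and 289 in cocaine at 2 h, and to 253 and 277 at 24 h. Astrocyte (313 to 367), microglia (73.7 to 84.0) and endothelial markers (71.2 to 92.3) were present in all 6 groups, and choroid plexus markers lay between 1.38 and 7.43. At 7 d the choroid plexus markers summed to 1.41 in saline and 7.43 in cocaine, with Ttr at 0.284 and 6.54. Of the marker genes, Doc2g was not listed, and Drd1 was listed under its older symbol Drd1a. The part of these differences in the clock gene values was not tested, and in bulk tissue fewer cells of a type cannot be told apart from less RNA per cell.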

How the data were processed

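Poly(A) RNA from PFC pools was sequenced on an Illumina HiSeq2000. The authors trimmed and aligned the reads and deposited 1 table per time point with 1 pooled FPKM per locus and group, each table normalized separately. The submitters' processing notes name CASAVA 1.8.2, Trimmomatic 0.32, TopHat2 2.0.12, Cufflinks 2.2.1, Cuffdiff and the builds GRCm38 and mm10. The study's methods name cutadapt and the build mm9 instead, and the labels and methods give different read lengths. Between 99.8% and 99.9% of named loci overlapped their GRCm38 gene. The deposited fold changes, test statistics, p-values and q-values are the authors' own comparisons and were not used.

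The column names do not tell saline from cocaine plainly, so the side was read from headings of the study's supplementary tables: 411 of 456, 13 of 14 and 503 of 530 genes matched within 5% with saline first, and 0 the other way.

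Ratios were log2 of (FPKM + 0.1) over loci whose mean FPKM reached 1. A check on simulated data planted changes past the fold without noise, so it covered the calculation only and not the data. The software was pandas 2.3.3, matplotlib 3.10.9, numpy 2.4.6 and Python 3.11.15. Where a symbol had several loci the longest was used, and of 2 Clock loci of one span the one with the higher FPKM. Across tables, named genes were used. Members were named in full. Of the other clock genes, those past 1.5-fold and the most abundant of each role were named, as were the 3 nearest profiles of each member, while Dbp was singled out after its values were seen. One gene of the wider clock list is not reported here. Members and lists were chosen with earlier results of these data known. RefSeq GRCm38.p6 supplied the promoters. Alternatives were other pseudocounts, FPKM minimums, folds, centring on the median and summed loci.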

Additional observations from a re-analysis of the deposited data

How the results depend on the processing

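No paired analysis was possible because the tables hold 1 pooled value per group, and for the same reason no replicate could be left out. With no replicate spread, a log2 ratio was taken as moved when it shifted by more than 0.1, and a count when it left 1.5 times its value. No alternative reversed a ratio past the fold. Of the counts and medians, 96 were within these limits and 21 were not, and of the single-member ratios 167 and 4. Most of these ratios could not move past the limit. A minimum changes no ratio, which covers 30 ratios with no minimum and 21 at a minimum of 5. Median centring moved none of 30 by more than 0.0245, and summing could alter only a member with a second row. The ratios that moved were 3 with pseudocount 1 and 1 with summed loci. A limit to loci of at least 300 bases with an accepted status was chosen after seeing the data. It could move no count of members between cocaine and saline, because every member row in use already met it. Shares over all loci were computed only at 1.5-fold with a minimum of 1 FPKM. The counts that follow, at other settings, therefore have no background beside them and do not show whether they are unusual. Members past the fold numbered 5 at 24 h at the lower fold, a difference of 25%, and 1 at 2-fold. The other clock genes past the fold at 2 h numbered 2 with pseudocount 0, with median centring and at the lower fold, and 0 at 2-fold, and at 24 h 0 with pseudocount 1, 2 at the lower fold and 0 at 2-fold. Between saline at 2 h and 24 h the members past the fold were 0 at an FPKM minimum of 5, which leaves out Per2, 3 at the lower fold and 0 at 2-fold. Between saline at 7 d and 24 h they were 4 at the lower fold, and between saline at 2 h and 7 d 6 at the lower fold and 1 at 2-fold. In cocaine at 2 h over 24 h they were 1 at a minimum of 5, 4 at the lower fold and 0 at 2-fold, at 7 d over 24 h 5 at the lower fold, and at 2 h over 7 d 3 at 2-fold. The median member log2 ratio at 24 h was 0.070 at a minimum of 5, over 7 genes. Summing both Clock loci turned its log2 ratio at 7 d to -0.04, and median centring turned the sign of 2 member ratios near 0. For each of these the cause was not tested, beyond fewer genes under a higher minimum and the fold itself.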
